A study of Mus musculus with 18 samples.

Results

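The genes described are 48 regulators and components of the actin cytoskeleton of T cells: the nucleation promoting factors and the WAVE complex, the Arp2/3 complex, actin and its monomer binders, capping proteins and coronins, small GTPases and their regulators, membrane linkers and crosslinkers, and myosin II. They were chosen by name, as the rows of the deposited expression table whose symbol is on the list. Of the 48, 47 had a row among the 46983 genes of the table; Diaph1 was not analysed here. The filter on low values, at least 10 in at least 4 libraries, left 9437 genes and 44 of the members, and Vav3, Tiam1 and Vcl lay under it.

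RNA was sequenced in 18 libraries of mouse CD8 T cells: 5 of memory phenotype and 5 naive from mice with the genotype Dock2-Hsd/Hsd (Dock2-/-), and 4 of memory phenotype and 4 naive from wild-type mice. Memory-phenotype cells had high surface CD44 (CD44hi) and naive cells low CD44 (CD44lo), per the descriptions. The cells had no treatment, and the sources used here give no ages. The strain field reads C57BL/6J for every library, but Dock2-deficient libraries carry C57L6NHsd in their descriptions, so substrain and genotype cannot be told apart. No source used here says that libraries of a group came from separate mice, so p-values measure the spread between libraries, part of which may be technical.

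Actin filaments grow from nucleators. The Arp2/3 complex starts a new filament on the side of an old one once a nucleation promoting factor engages it, and in T cells the main such factors are WASP, which answers to Cdc42, and the WAVE complex, which answers to Rac. Dock2 is the exchange factor that loads Rac with GTP in blood cells, so it stands upstream of WAVE in the migration of T cells and in the contact they form with antigen-presenting cells. These are steps between proteins, and the values below are RNA levels.

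Depth was 2215987 to 8257768 expected reads per library, of which the ribosomal RNA gene Rn18s-rs5 took 37.0% to 69.4%, which left 850659 to 2830470 reads. Its share was 61.6%, 55.0%, 48.6%, 69.0% and 37.0% in Dock2-deficient memory libraries 1 to 5. The part of this share in the results was not tested. Dock2 itself had a mean normalized expected count of 184 ± 83.4 in Dock2-deficient memory and 537 ± 206 in wild-type memory libraries, and of 243 ± 88.5 in Dock2-deficient naive and 388 ± 101 in wild-type naive libraries (SD, n = 5 and 4). The log2 fold change of Dock2 was -1.64 ± 0.36 in memory and -0.71 ± 0.36 in naive cells, and neither passed limma's test (adjusted p = 0.121 and 0.841). The memory groups did not overlap, with at most 279.6 in Dock2-deficient and at least 399.7 in wild-type libraries, and the lowest Dock2-deficient library still held 61.0. Summed over 6 genes, the CD8 T cell markers lay at 5983 to 13152, while the sums of B cell markers reached at most 57.8, of CD4 T cell markers 25.8, of myeloid markers 171 and of platelet and red cell markers 217, the last in a Dock2-deficient naive library. The sum of 4 NK cell markers (Ncr1, Klrb1c, Klre1 and Eomes) moved with memory phenotype, at 90.2 to 123 in Dock2-deficient memory, 4.55 to 64.5 in Dock2-deficient naive, 95.3 to 159 in wild-type memory and 6.99 to 15.4 in wild-type naive libraries. Whether NK cells or the CD8 T cells themselves held these RNAs was not tested. The part of these markers in the results was not tested. Xist, a female marker, was at most 5.44 in 8 of the Dock2-deficient libraries and high in replicate 1 of both Dock2-deficient groups and in all 8 wild-type libraries, so sex was spread unevenly over genotype. The members Was, Tmsb4x, Msn and Flna lie on chromosome X. Dock2-deficient memory library 5 and wild-type memory library 4 stood apart from the rest of their groups. Where leaving out either library moved a printed fold change of a member by over 1.5 times, the value without it is given too.

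Members that have a close relative share sequence, and the counting had to divide reads between them. The coding sequences of the thymosins Tmsb4x and Tmsb10, which bind actin monomers, are shown because both genes lay near the top of the order of levels and are the shortest such pair. Both are 135 bases long and are identical at 95 positions (70.4%); capitals mark the 40 positions at which they differ. They come from GENCODE M21 on GRCm38, from chromosome X for Tmsb4x and from chromosome 6 for Tmsb10.
Tmsb4x: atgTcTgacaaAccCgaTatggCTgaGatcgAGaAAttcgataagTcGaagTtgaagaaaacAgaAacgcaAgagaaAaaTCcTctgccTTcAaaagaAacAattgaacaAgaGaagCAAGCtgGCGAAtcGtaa
Tmsb10: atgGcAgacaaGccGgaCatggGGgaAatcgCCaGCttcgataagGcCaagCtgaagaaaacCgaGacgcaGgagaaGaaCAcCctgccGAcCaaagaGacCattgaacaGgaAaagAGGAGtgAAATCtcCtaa
The differing positions are spread over the whole length. Actb and Actg1 were closer, identical at 1000 of 1128 coding bases (88.7%), Capza1 and Capza2 at 662 of 861 (76.9%), and Arpc5 and Arpc5l at 330 of 441 aligned bases (74.8%). How reads were divided within these pairs was not tested.

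Actin and its partners are known targets of serum response factor, which binds the CArG box, and G-actin itself holds back a cofactor of that factor. The RefSeq windows from 250 bases before to 50 after the start site (GRCm38.p6) were searched for the CArG box on both strands. Of 58 windows of 41 members, 5 held a match (8.62%), against 535 of 32851 windows of all genes (1.63%). A match is a stretch of letters, and binding was not measured. The members with a match were Actg1, Myl6, Arpc4, Vcl and Tiam1, and the windows of the 2 with the highest expression are printed, with the CArG box in capitals. The window of Actg1 is chr11:120348446-120348745 on the minus strand, with the match 90 bases upstream of the start site, and that of Myl6 is chr10:128492960-128493259 on the minus strand, with the match 50 bases upstream. The Myl6 window lies inside the gene as annotated in GENCODE M21 (chr10:128490860-128494145), so its start site is not the outermost. The Tiam1 window, chr16:89974650-89974949, likewise lies inside its gene (chr16:89787111-90143769).
Actg1: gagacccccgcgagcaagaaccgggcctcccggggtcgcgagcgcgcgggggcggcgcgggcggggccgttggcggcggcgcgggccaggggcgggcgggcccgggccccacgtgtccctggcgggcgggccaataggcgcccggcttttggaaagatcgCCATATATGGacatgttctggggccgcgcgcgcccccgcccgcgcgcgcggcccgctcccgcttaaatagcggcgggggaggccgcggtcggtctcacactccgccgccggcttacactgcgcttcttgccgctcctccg
Myl6: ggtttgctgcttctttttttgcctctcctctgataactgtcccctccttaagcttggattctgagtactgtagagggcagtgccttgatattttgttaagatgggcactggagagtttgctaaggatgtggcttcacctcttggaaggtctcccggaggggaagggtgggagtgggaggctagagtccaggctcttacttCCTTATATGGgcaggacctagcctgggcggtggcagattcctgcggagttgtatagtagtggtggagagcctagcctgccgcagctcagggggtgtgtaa
Actb, Arpc5l, Coro1b, Cotl1, Nckap1l and Pak2 had no entry in the promoter table.

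Levels are compared between genes per kilobase of the principal transcript, as the mean over the 18 libraries of the normalized expected count. Actb, cytoplasmic beta-actin, was highest at 12931 per kilobase. Tmsb4x, which holds actin monomers in reserve, followed at 4170.5, and then Pfn1, profilin, which feeds monomers to growing ends, at 2421. Actg1, gamma-actin, stood at 1959, Coro1a, the coronin of blood cells, at 1928, and Tmsb10 at 1695 per kilobase. Arhgdib, a GDP dissociation inhibitor of blood cells, was at 1521 per kilobase. The nucleation factors were far lower: Was stood at 31.9, Wasf2 at 49.96 and Wipf1 at 11.4 per kilobase, while Arp2/3 subunits lay between 77.7 for Actr2 and 398 for Actr3. Tiam1, a Rac exchange factor, was lowest at 0.180 per kilobase.

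**Figure D1:**
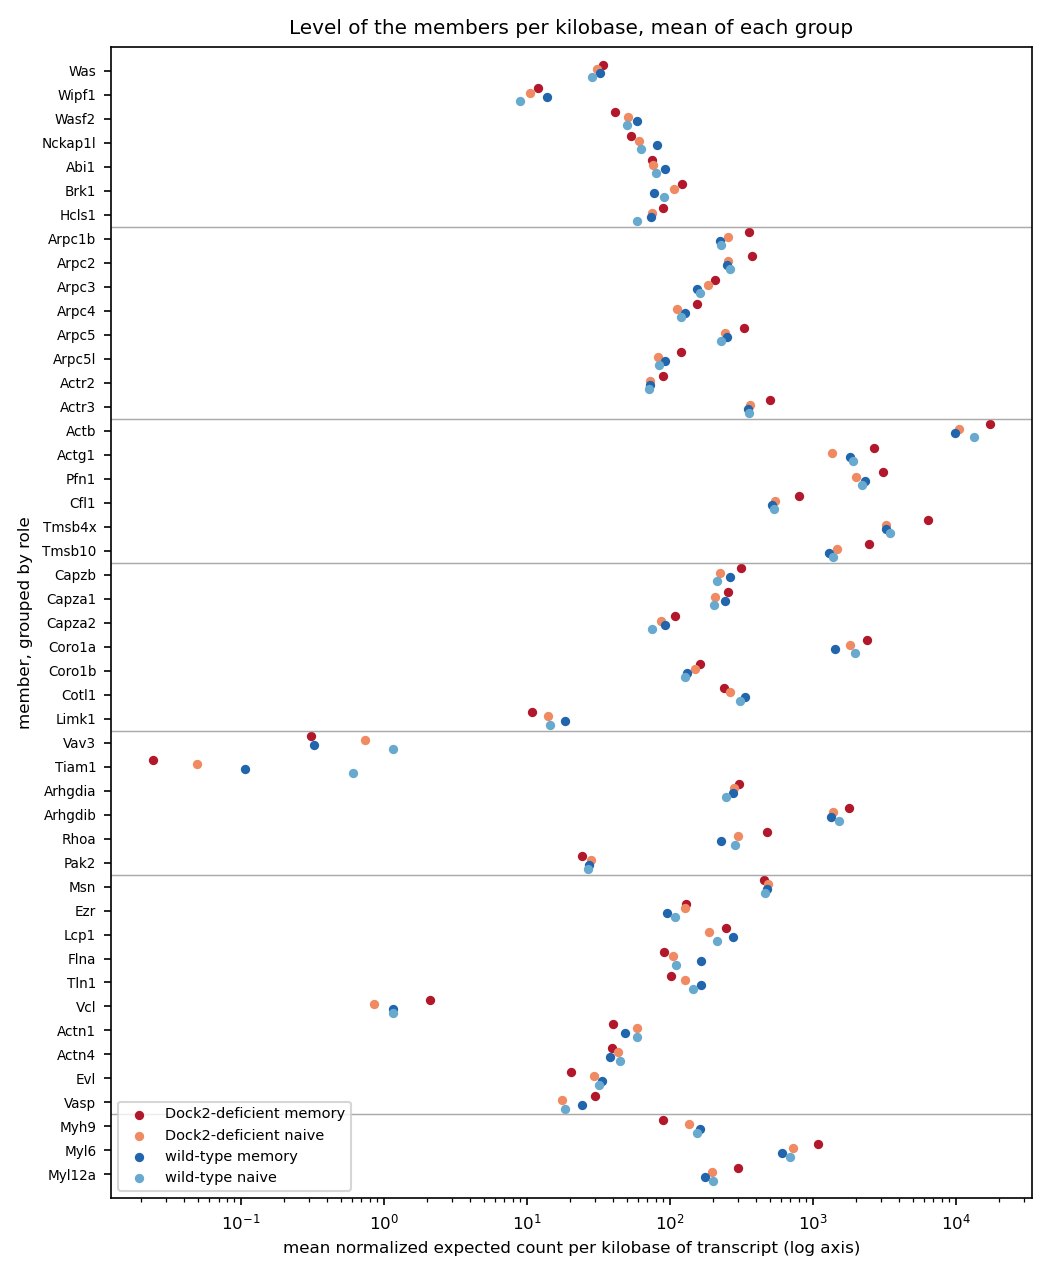
Mean normalized expected count per kilobase of transcript (log axis) of the 47 members with a row, grouped by role from the nucleation promoting factors at the top to myosin II at the bottom; each point is the mean of a group (5 libraries in both Dock2-deficient groups, 4 in both wild-type groups). Actb stands farthest right, and Vav3, Tiam1 and Vcl lie far to the left of the rest.

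The 4 groups were compared with limma on log2(value + 1) over all 9437 genes, and p-values were adjusted over all of them with the Benjamini-Hochberg method. In Dock2-deficient memory against wild-type memory cells, 0 of the 44 members passed the adjusted threshold of 0.05, where 0.053% of all genes passed, and 14 members had an unadjusted p under 0.05, where 16.4% of all genes did. Of these 14, 6 lay above 0 and 8 below, where 7.92% of all genes lay above and 8.47% below at that level. Dock2-deficient against wild-type naive cells likewise gave 0 members past the threshold (0.138% of all genes) and 0 at an unadjusted p under 0.05 (6.1% of all genes). Memory against naive cells gave 0 members in Dock2-deficient mice (2.82% of all genes) and 0 in wild-type mice (2.52% of all genes). The counts at an unadjusted p under 0.05 were 9 members in Dock2-deficient mice, where 13.4% of all genes had one, and 1 member in wild-type mice, where 12.1% did. The difference between genotypes in the memory effect gave 0 members (0.0318% of all genes) and 1 at an unadjusted p under 0.05 (5.21% of all genes).

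The intervals say how large a difference these libraries leave possible. The 95% interval of the fold change lay within 2-fold in either direction for 42 of 44 members in Dock2-deficient against wild-type naive cells. It did so for 36 members in wild-type memory against naive cells and for 32 in Dock2-deficient memory against naive cells. In Dock2-deficient against wild-type memory cells it did so for 25, and for 18 in the difference of the memory effects. A 2-fold difference in level between genotypes thus lay outside the interval for nearly all members in naive cells, while in memory cells 19 members had an interval that reached past it. In bulk RNA such as this, fewer cells of a type and less RNA per cell cannot be told apart.

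**Figure D2:**
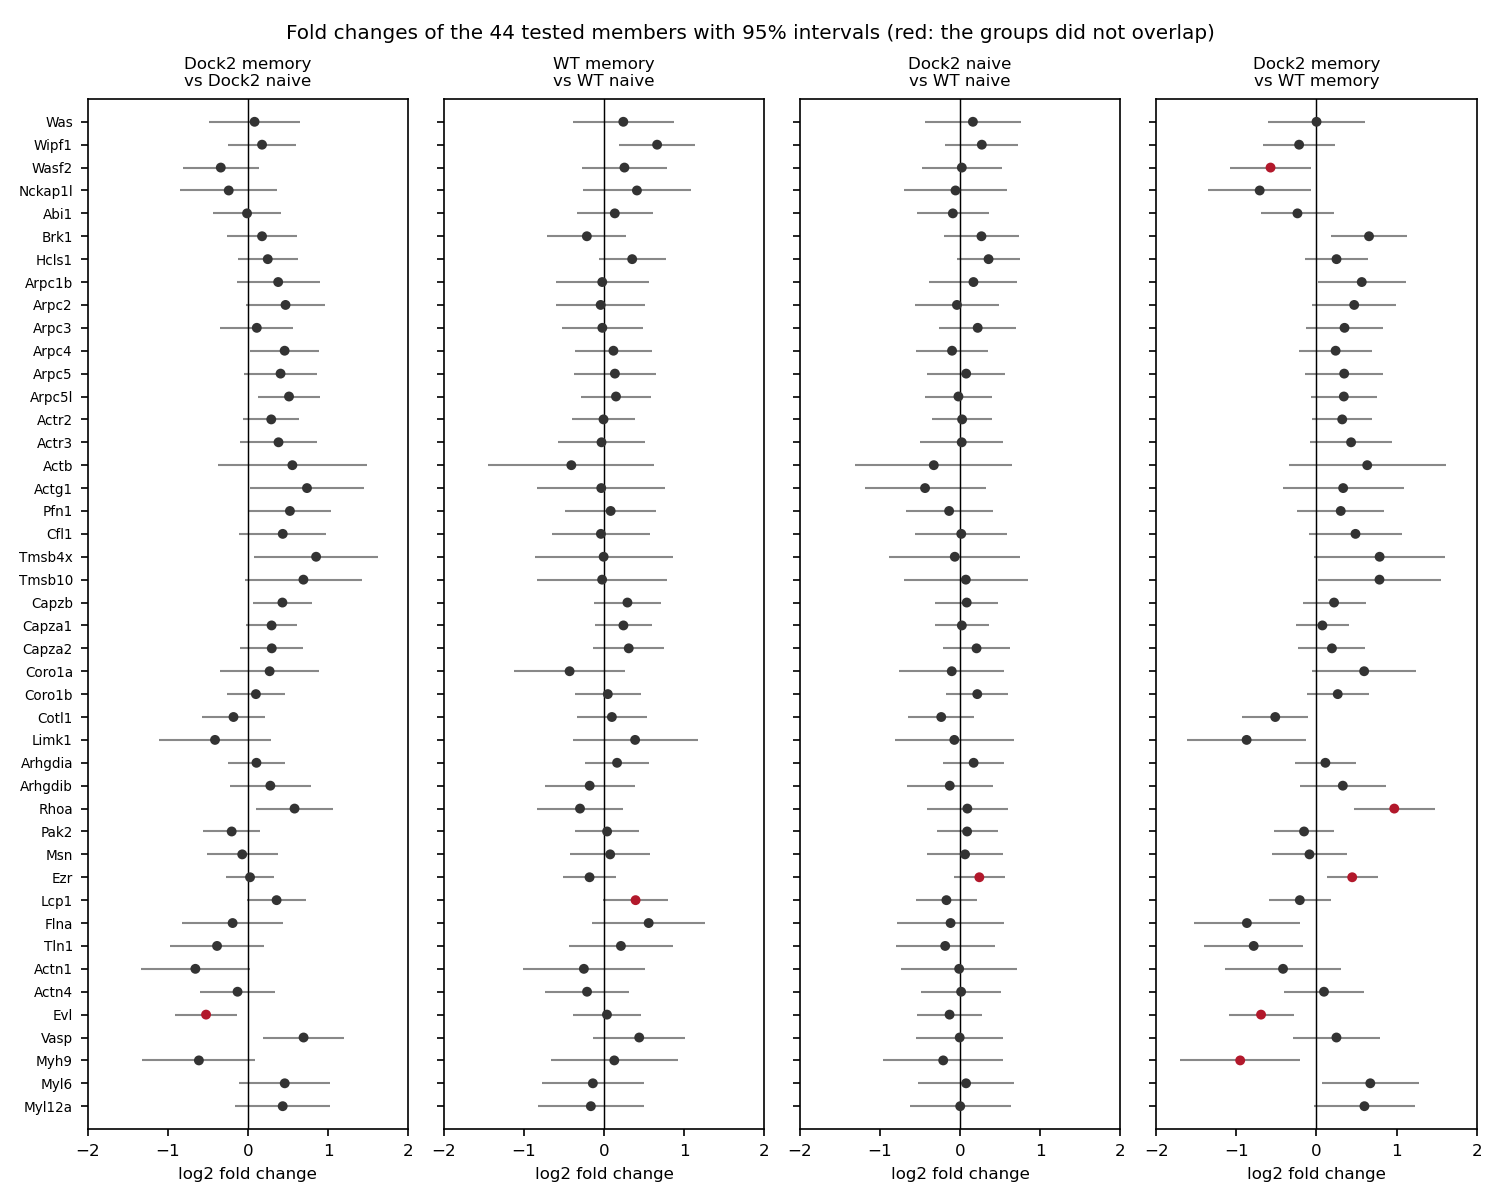
Log2 fold change (point) and 95% interval (line) of the 44 tested members in 4 comparisons, members grouped by role from the nucleation promoting factors at the top to myosin II at the bottom; red points mark members whose groups did not overlap. In the comparison of Dock2-deficient with wild-type memory cells 5 members are red, and 1 in each of the others.

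Across the members as a group, the median log2 fold change was 0.25 in Dock2-deficient against wild-type memory cells (30 above 0, 14 below) and 0.28 in Dock2-deficient memory against naive cells (31 above, 13 below), where the median of all genes was 0.01 and -0.01. It was 0.01 in Dock2-deficient against wild-type naive cells and 0.06 in wild-type memory against naive cells, with 24 and 25 members above 0. Library 5 of the Dock2-deficient memory group was the highest of its group for 30 of the 44 members and the lowest for 8. Without it, the median was 0.10 in Dock2-deficient against wild-type memory cells (28 above 0) and 0.14 in Dock2-deficient memory against naive cells (28 above 0). Scaling every library to the same sum of genes other than Rn18s-rs5 and mitochondrial genes moved the median of all genes to -0.27 and -0.31. The members' medians became -0.04 and -0.05 in these comparisons. Relative to all genes they stayed 0.22 and 0.27 higher.

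Groups without overlap were few. In Dock2-deficient against wild-type memory cells, Rhoa and Ezr lay higher and Evl, Myh9 and Wasf2 lower in every library of the Dock2-deficient group than in any of the wild-type group, 5 of 44 members where 4.44% of all genes did not overlap (2.06% higher and 2.38% lower). Ezr was also the only tested member without overlap between Dock2-deficient and wild-type naive cells (2.71% of all genes), again higher. Evl, lower, was the only such tested member in Dock2-deficient memory against naive cells (3.93% of all genes), and Lcp1, higher, in wild-type memory against naive cells (8.27% of all genes). None of these passed the adjusted test. The values by library follow, role by role, in normalized expected counts; means are given with SD (n = 5 in Dock2-deficient and 4 in wild-type groups) and log2 fold changes with SE and adjusted p from limma.

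**Figure D3:**
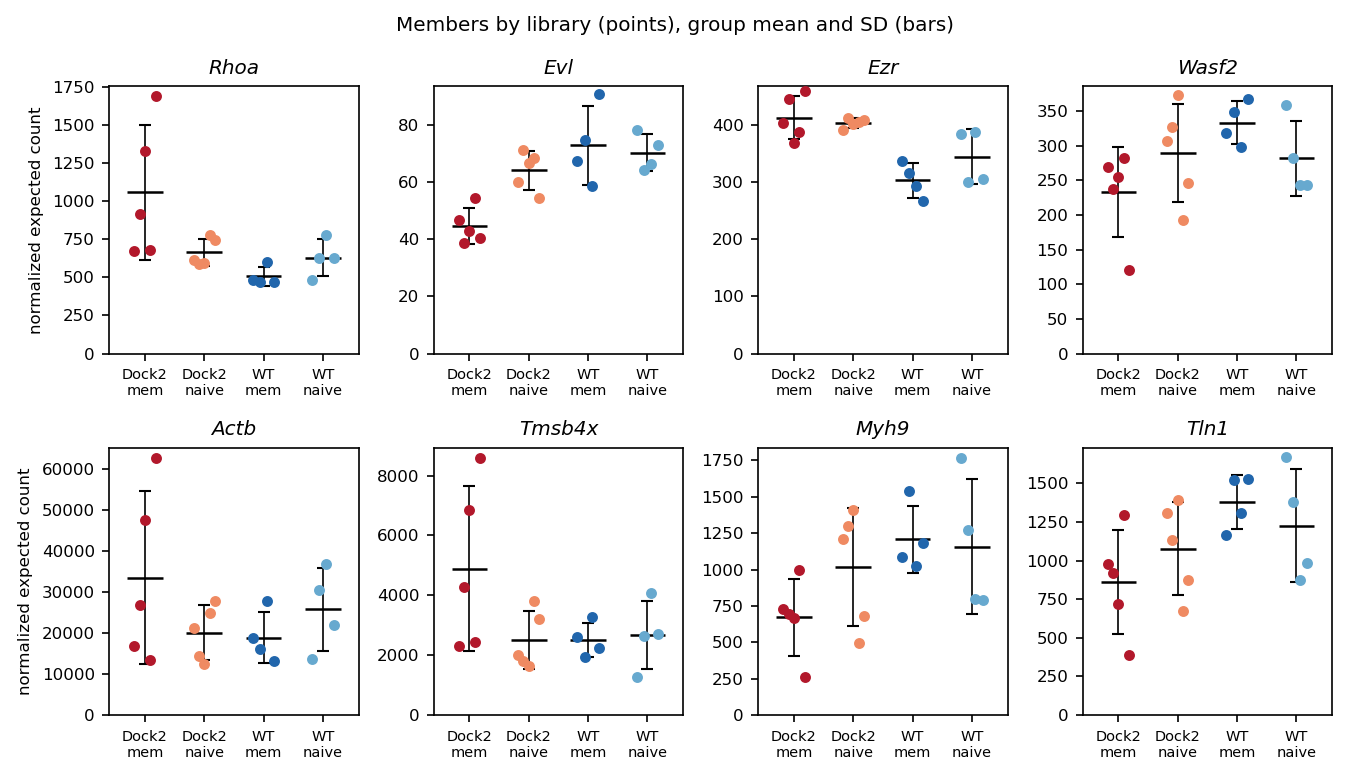
Normalized expected count of 8 members in each library (points), with group mean (horizontal line) and SD (bar), Dock2-deficient groups left of wild-type groups. Rhoa and Ezr lie higher and Evl and Wasf2 lower in all Dock2-deficient memory libraries than in any wild-type memory library, and Actb and Tmsb4x spread most within the Dock2-deficient memory group.

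The nucleation promoting factors and the WAVE complex are the point at which Rac and Cdc42 act on actin. None of their 7 tested members passed the test in any of the comparisons, and their median log2 fold change was -0.22 in Dock2-deficient against wild-type memory cells and 0.26 in wild-type memory against naive cells. Wasf2 (WAVE2, chr4:133130505-133199756, plus strand, mm10) is the WAVE protein that carries the Arp2/3-activating end. Wasf2 had 269.8, 237, 254, 283 and 120.3 in Dock2-deficient memory libraries, against 318, 349, 297.8 and 368 in wild-type memory libraries. Every Dock2-deficient memory library lay below every wild-type one, and library 5 lay far below the others. In naive cells Wasf2 had 306.4, 327, 374, 193 and 247 in Dock2-deficient naive libraries, against 358, 282, 243 and 244 in wild-type naive libraries, and these groups overlapped. The log2 fold change of Wasf2 was -0.57 ± 0.24 in Dock2-deficient against wild-type memory cells (adjusted p = 0.281) and 0.02 ± 0.24 in naive cells (adjusted p = 1); the difference between these, -0.59 ± 0.34, did not pass either (adjusted p = 0.819). Without library 5 the memory value was -0.35 ± 0.20 and the difference -0.37 ± 0.27.

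Nckap1l (HEM1, chr15:103453794-103498810, plus strand) is a subunit of the WAVE complex in blood cells. It had 238, 269, 201, 423 and 127 in Dock2-deficient memory libraries, against 334, 419, 325 and 468 in wild-type memory libraries. In naive libraries Nckap1l had 295, 435, 329, 171 and 221 in Dock2-deficient naive libraries, against 414, 347, 217 and 218 in wild-type naive libraries. Its groups overlapped, with library 4 of the Dock2-deficient memory group inside the wild-type range, and its log2 fold change in memory cells was -0.71 ± 0.31 (adjusted p = 0.285). The other WAVE subunits were Abi1 and Brk1. Abi1, an adaptor of the complex, averaged 231 ± 29.9 in Dock2-deficient memory, 235 ± 49.9 in Dock2-deficient naive, 284 ± 105 in wild-type memory and 247 ± 18.4 in wild-type naive libraries. Brk1, its smallest subunit, averaged 134 ± 30.8 in Dock2-deficient memory, 117 ± 17.8 in Dock2-deficient naive, 84.6 ± 19.4 in wild-type memory and 99.4 ± 26.2 in wild-type naive libraries, and its log2 fold change in Dock2-deficient against wild-type memory cells was 0.66 ± 0.22 (adjusted p = 0.241). So within the same complex the fitted values lay on both sides of 0. The principal transcripts of Wasf2, Nckap1l and Abi1, which lay below 0, are 5642, 4725 and 3067 bases long. That of Brk1, which lay above 0, has 1095 bases.

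Was (WASP, chrX:8081453-8090498, minus strand) is the nucleation promoting factor that is mutated in human Wiskott-Aldrich syndrome. Was had 60.4, 88.9, 77.4, 35.8 and 102 in Dock2-deficient memory libraries, against 73.0, 73.0, 76.1 and 54.4 in wild-type memory libraries. Naive libraries held Was at 51.0, 55.0, 65.0, 75.4 and 82.1 in Dock2-deficient naive libraries, against 46.3, 45.2, 96.2 and 55.4 in wild-type naive libraries. All 4 groups overlapped, and the log2 fold change was 0.00 ± 0.29 in Dock2-deficient against wild-type memory cells (adjusted p = 0.998) with an interval of -0.60 to 0.60. It was -0.14 ± 0.29 without Dock2-deficient memory library 5 and -0.11 ± 0.31 without wild-type memory library 4. Wipf1 (WIP, chr2:73429610-73529734, minus strand) binds WASP and protects it from degradation. It had 60.4, 53.1, 67.03, 51.9 and 52.2 in Dock2-deficient memory libraries, against 58.9, 64.2, 69.6 and 71.7 in wild-type memory libraries. For naive cells Wipf1 stood at 52.7, 40.1, 54.8, 48.1 and 55.8 in Dock2-deficient naive libraries, against 30.8, 34.4, 44.7 and 61.0 in wild-type naive libraries. Wild-type memory libraries lay above wild-type naive ones but for naive library 4, and the log2 fold change of 0.66 ± 0.23 gave the smallest adjusted p of any member in that comparison, 0.174. In Dock2-deficient cells the memory effect was 0.18 ± 0.21 (adjusted p = 0.767). Hcls1 (HS1, chr16:36934983-36963212, plus strand), the blood-cell relative of cortactin, had 153, 173, 182, 154 and 243 in Dock2-deficient memory libraries, against 143, 132, 166 and 160.0 in wild-type memory libraries. Among naive libraries Hcls1 read 127, 166, 146, 176 and 139 in Dock2-deficient naive libraries, against 92.5, 114, 116 and 154 in wild-type naive libraries. Its log2 fold change between genotypes in naive cells, 0.35 ± 0.19, had the smallest adjusted p of the members there, 0.867, which is far from the threshold.

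The Arp2/3 complex has 7 subunits, and 8 of its genes were measured because Arpc5 and Arpc5l code for alternative forms of the same subunit. None passed the test. All 8 had fold changes above 0 in Dock2-deficient against wild-type memory cells (median log2 0.35) and in Dock2-deficient memory against naive cells (0.40), while 3 of 8 did in wild-type memory against naive cells (-0.01). Without Dock2-deficient memory library 5 the medians were 0.22 with 8 above 0 and 0.22 with 7 above 0. With every library scaled to the same sum without Rn18s-rs5 and mitochondrial genes, 7 and 6 of the 8 lay above 0. The principal transcripts of the 8 are 899 bases (Arpc3) to 3631 bases (Actr2) long. Of other genes under 3000 bases, 64.9% and 59.5% lay above 0 in these comparisons in the main fit, and of longer ones 37.8% and 39.1%.

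Actr3 (Arp3, chr1:125392905-125435727, minus strand) is one of the actin-related proteins that form the base of the new filament. Actr3 had 764, 1099, 1402, 994 and 2146 in Dock2-deficient memory libraries, against 995, 833, 1054 and 718 in wild-type memory libraries. Its naive libraries gave 900.2, 731, 806, 1088 and 1152 in Dock2-deficient naive libraries, against 753, 1035, 1039.6 and 845 in wild-type naive libraries. Libraries 2, 3 and 5 of the Dock2-deficient memory group lay above the wild-type memory range and libraries 1 and 4 inside it, and the log2 fold change was 0.43 ± 0.25 (adjusted p = 0.372) and 0.22 ± 0.21 without library 5. Arpc2 (chr1:74236084-74268209, plus strand) is a core subunit that holds the complex to the mother filament. Arpc2 had 412, 442, 502, 346 and 1025 in Dock2-deficient memory libraries, against 346, 349, 411 and 349 in wild-type memory libraries. In naive cells Arpc2 had 359, 334, 265, 448 and 442 in Dock2-deficient naive libraries, against 291, 376, 464 and 383 in wild-type naive libraries. Library 5 lay far above the other libraries of its group, and the log2 fold change in Dock2-deficient memory against naive cells was 0.47 ± 0.24 (adjusted p = 0.407), and 0.21 ± 0.19 without that library. Arpc5l (chr2:39005348-39015877, plus strand), the alternative form of Arpc5, had 131, 175, 148, 131 and 214 in Dock2-deficient memory libraries, against 142, 110.2, 141 and 107 in wild-type memory libraries. The naive values of Arpc5l were 98.9, 115, 97.4, 134 and 107 in Dock2-deficient naive libraries, against 94.3, 123, 138 and 96.0 in wild-type naive libraries. Its log2 fold change in Dock2-deficient memory against naive cells was 0.51 ± 0.19 (adjusted p = 0.199), with naive library 4 the only one of its group inside the memory range.

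The other subunits varied in the same manner. Arpc5 averaged 635 ± 219.9 in Dock2-deficient memory, 464 ± 95.7 in Dock2-deficient naive, 481 ± 73.9 in wild-type memory and 439 ± 74.6 in wild-type naive libraries. Arpc1b, the form of the ARPC1 subunit that prevails in blood cells and whose loss causes immune deficiency in humans, averaged 1107 ± 534 in Dock2-deficient memory, 800.4 ± 170.2 in Dock2-deficient naive, 695 ± 92.8 in wild-type memory and 714 ± 157 in wild-type naive libraries. Arpc3 averaged 187 ± 70.6 in Dock2-deficient memory, 167 ± 27.5 in Dock2-deficient naive, 139.8 ± 4.68 in wild-type memory and 145 ± 39.2 in wild-type naive libraries. Arpc4, which pairs with Arpc2 in the core, averaged 355 ± 102 in Dock2-deficient memory, 254 ± 56.9 in Dock2-deficient naive, 292 ± 25.7 in wild-type memory and 272 ± 49.0 in wild-type naive libraries. Actr2 (Arp2), the partner of Arp3, averaged 327 ± 36.5 in Dock2-deficient memory, 267 ± 30.2 in Dock2-deficient naive, 266 ± 64.9 in wild-type memory and 261 ± 18.8 in wild-type naive libraries. The SD of the Dock2-deficient memory group was the largest of the 4 groups for each of these but Actr2, whose largest SD was in wild-type memory cells.

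Actin and the proteins that bind its monomers set how much actin is free to polymerise. None of the 6 passed the test, and all 6 had fold changes above 0 in Dock2-deficient against wild-type memory cells (median log2 0.56) and in Dock2-deficient memory against naive cells (0.63). Without library 5 of that group the medians were 0.29 and 0.38, again with 6 above 0. All 6 also lay above 0 with every library scaled to the same sum without Rn18s-rs5 and mitochondrial genes. The principal transcripts of the 6 are 690 bases (Tmsb10) to 2354 bases (Cfl1) long. Of other genes under 3000 bases, 64.9% and 59.5% lay above 0 in these 2 comparisons in the main fit. Fold changes are set against transcript length further below. In wild-type memory against naive cells 1 of 6 lay above 0 (median -0.03). Actb (chr5:142903115-142906754, minus strand) had 16750.1, 26903, 47545, 13359 and 62820.5 in Dock2-deficient memory libraries, against 18709, 16057, 27758 and 13145 in wild-type memory libraries. The naive libraries held Actb at 21154, 14428, 12354, 24863 and 27909.9 in Dock2-deficient naive libraries, against 13677, 30597, 36868 and 22001 in wild-type naive libraries. Libraries 3 and 5 of the Dock2-deficient memory group lay above every other library of the series, and library 4 of the same group near the lowest. The log2 fold change of Actb was 0.63 ± 0.47 in Dock2-deficient against wild-type memory cells (adjusted p = 0.491), with an interval of -0.35 to 1.62, the widest of the members in that comparison. Without library 5 it was 0.35 ± 0.44.

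Tmsb4x (thymosin beta 4, chrX:167207093-167209315, minus strand), whose coding sequence is shown above, had 2293, 4279, 6837, 2437 and 8576 in Dock2-deficient memory libraries, against 2601, 1928, 3264 and 2255 in wild-type memory libraries. Tmsb4x in naive libraries was 1999, 1806, 1647, 3814 and 3221 in Dock2-deficient naive libraries, against 1287, 2631, 4062 and 2716 in wild-type naive libraries. Libraries 2, 3 and 5 of the Dock2-deficient memory group lay above all other libraries of the series and libraries 1 and 4 among them, and the log2 fold change was 0.79 ± 0.39 against wild-type memory cells (adjusted p = 0.316) and 0.85 ± 0.37 against Dock2-deficient naive cells (adjusted p = 0.311). Without library 5 these were 0.54 ± 0.37 and 0.60 ± 0.35. Cfl1 (cofilin, chr19:5490455-5495201, plus strand) severs old filaments and returns their monomers. Cfl1 had 1167, 1499, 2298, 1064 and 3465 in Dock2-deficient memory libraries, against 1213, 1126, 1409 and 1159.5 in wild-type memory libraries. Cfl1 read 1264, 1219, 964, 1348 and 1634 in Dock2-deficient naive libraries, against 1066, 1161, 1548 and 1297 in wild-type naive libraries. Here too only libraries 3 and 5 of the Dock2-deficient memory group left the range of the others clearly, and the log2 fold change was 0.49 ± 0.28 (adjusted p = 0.369), and 0.23 ± 0.23 without library 5. Actg1 averaged 5216 ± 3238 in Dock2-deficient memory, 2679 ± 392 in Dock2-deficient naive, 3575 ± 772 in wild-type memory and 3761 ± 1226 in wild-type naive libraries. Pfn1 averaged 2662 ± 1238 in Dock2-deficient memory, 1724 ± 285 in Dock2-deficient naive, 1996 ± 178 in wild-type memory and 1900.1 ± 329 in wild-type naive libraries. Tmsb10 averaged 1711 ± 901 in Dock2-deficient memory, 1014 ± 446 in Dock2-deficient naive, 895 ± 173 in wild-type memory and 961 ± 406 in wild-type naive libraries, with a log2 fold change of 0.79 ± 0.37 in Dock2-deficient against wild-type memory cells (adjusted p = 0.304).

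Capping proteins close the growing end of a filament, and coronins and LIM kinase steer its turnover by cofilin. None of the 7 passed the test. Capzb (chr4:139192899-139291818, plus strand), the beta subunit of capping protein, had 453, 503, 533, 392 and 793 in Dock2-deficient memory libraries, against 394, 440.2, 429 and 529 in wild-type memory libraries. Capzb stood at 376, 385, 348, 424 and 395 in Dock2-deficient naive libraries, against 322, 376, 433 and 333 in wild-type naive libraries. Its log2 fold change was 0.43 ± 0.18 in Dock2-deficient memory against naive cells (adjusted p = 0.279) and 0.29 ± 0.20 in wild-type memory against naive cells (adjusted p = 0.633); without Dock2-deficient memory library 5 the first was 0.28 ± 0.15. Coro1a (chr7:126699773-126707787, minus strand), coronin of blood cells and needed for the survival of naive T cells, had 2432, 3667, 4933, 2173 and 7821 in Dock2-deficient memory libraries, against 2309.6, 2419, 2913 and 2341 in wild-type memory libraries. Among the naive libraries Coro1a was 2964, 2611, 2525, 3980.0 and 3741 in Dock2-deficient naive libraries, against 2268, 3709, 4532 and 3288 in wild-type naive libraries. The log2 fold changes were 0.60 ± 0.31 in Dock2-deficient against wild-type memory cells (adjusted p = 0.340) and -0.43 ± 0.33 in wild-type memory against naive cells (adjusted p = 0.690), on opposite sides of 0. Without Dock2-deficient memory library 5 the genotype value was 0.33 ± 0.27. Capza1, an alpha subunit of capping protein, averaged 819 ± 97.5 in Dock2-deficient memory, 667 ± 93.2 in Dock2-deficient naive, 774 ± 49.3 in wild-type memory and 656 ± 71.5 in wild-type naive libraries. Capza2, the other alpha subunit, averaged 276 ± 75.4 in Dock2-deficient memory, 219.7 ± 27.7 in Dock2-deficient naive, 236 ± 28.9 in wild-type memory and 192 ± 36.7 in wild-type naive libraries. Coro1b, the ubiquitous coronin, averaged 309.1 ± 84.2 in Dock2-deficient memory, 283 ± 42.7 in Dock2-deficient naive, 251.1 ± 23.8 in wild-type memory and 243 ± 19.4 in wild-type naive libraries.

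Cotl1 and Limk1 lay on the other side. Cotl1 (coactosin-like), which binds filaments, averaged 382 ± 117 in Dock2-deficient memory, 419 ± 36.8 in Dock2-deficient naive, 534 ± 97.7 in wild-type memory and 494 ± 43.97 in wild-type naive libraries, and its log2 fold change in Dock2-deficient against wild-type memory cells was -0.51 ± 0.20 (adjusted p = 0.259). Limk1, the kinase that switches cofilin off, averaged 36.4 ± 15.997 in Dock2-deficient memory, 46.6 ± 18.3 in Dock2-deficient naive, 62.1 ± 12.8 in wild-type memory and 48.4 ± 16.02 in wild-type naive libraries, with a log2 fold change of -0.87 ± 0.35 (adjusted p = 0.270). In naive cells the same comparison gave -0.24 ± 0.20 for Cotl1 (adjusted p = 0.963) and -0.07 ± 0.35 for Limk1 (adjusted p = 1).

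Among the small GTPases and their regulators, Rhoa (ENSMUSG00000007815, chr9:108306129-108337934, plus strand) came nearest to the threshold. Its product is the GTPase that drives myosin contraction and formins, and is in many cells set against Rac. Rhoa had 675, 917, 1325, 678 and 1691 in Dock2-deficient memory libraries, against 483, 470.3, 601 and 469 in wild-type memory libraries. Naive libraries held Rhoa at 613, 588, 597, 775 and 744 in Dock2-deficient naive libraries, against 484, 625, 779 and 624 in wild-type naive libraries. The lowest Dock2-deficient memory library lay above the highest wild-type memory library, and the naive groups overlapped. The log2 fold change was 0.97 ± 0.24 in Dock2-deficient against wild-type memory cells, with an interval of 0.47 to 1.48, unadjusted p = 0.000656 and adjusted p = 0.171. In naive cells it was 0.09 ± 0.24 (adjusted p = 0.992), and the difference between memory and naive cells, 0.88 ± 0.34, did not pass (adjusted p = 0.819). Rhoa was called in this comparison under a single alternative, weights per library, with adjusted p = 0.0333; over all its alternatives the adjusted p ran from 0.0333 to 0.789. Its log2 fold change was 0.74 without the 2 libraries that stood apart and 0.65 with a term for Xist, in which only replicate 1 of the Dock2-deficient groups separates sex from genotype.

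Arhgdia and Arhgdib code for the GDP dissociation inhibitors, which keep small GTPases in the cytosol. Arhgdia averaged 656 ± 142 in Dock2-deficient memory, 607 ± 112 in Dock2-deficient naive, 599 ± 64.7 in wild-type memory and 533 ± 20.8 in wild-type naive libraries. Arhgdib, the form of blood cells, averaged 2156 ± 979 in Dock2-deficient memory, 1653 ± 229 in Dock2-deficient naive, 1594 ± 181 in wild-type memory and 1811 ± 276 in wild-type naive libraries. Pak2, a kinase that Rac and Cdc42 activate, averaged 141 ± 17.2 in Dock2-deficient memory, 163 ± 22.4 in Dock2-deficient naive, 158 ± 26.0 in wild-type memory and 153 ± 23.4 in wild-type naive libraries and was the steadiest member, with a highest library 1.59 times the lowest. Vav3 (chr3:109340653-109685698, plus strand), a Rac exchange factor like Dock2, was under the filter, with 3.55, 0, 1.72, 2.55 and 0 in Dock2-deficient memory libraries, against 3.32, 1.89, 1.29 and 0 in wild-type memory libraries. Vav3 in naive libraries was 2.73, 0.679, 5.63, 6.42 and 2.99 in Dock2-deficient naive libraries, against 8.26, 5.42, 4.19 and 5.65 in wild-type naive libraries. Every wild-type naive library lay above every wild-type memory library for Vav3, at values under 10. Of the 9437 genes tested, 8.27% did not overlap in that comparison, and Vav3 was not among the genes tested. Tiam1, another Rac exchange factor, was listed at 0 in 13 libraries and reached 14.3 in wild-type naive library 1.

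The linkers and crosslinkers tie filaments to the membrane, to integrins and to each other. None of their 9 tested members passed the test. Ezr (ezrin, chr17:6738041-6782784, minus strand), which links filaments to the plasma membrane, had 405, 446, 369.5, 388 and 459 in Dock2-deficient memory libraries, against 337, 315, 294 and 267 in wild-type memory libraries. In naive libraries Ezr had 391, 413, 403, 405 and 409 in Dock2-deficient naive libraries, against 385, 300.2, 388 and 306.01 in wild-type naive libraries. Both genotype comparisons were without overlap, with Dock2-deficient libraries above wild-type ones. The log2 fold change was 0.45 ± 0.15 in memory cells (adjusted p = 0.238) and 0.24 ± 0.15 in naive cells (adjusted p = 0.920). Msn (moesin, chrX:96096042-96168552, plus strand), the main ezrin relative of T cells, had 1608, 1459.7, 1772, 2323 and 1605 in Dock2-deficient memory libraries, against 1583, 2137, 1708 and 1971 in wild-type memory libraries. Msn gave 1952, 2524, 1956, 1191 and 1721 in Dock2-deficient naive libraries, against 2213, 2005, 1358 and 1524 in wild-type naive libraries in naive cells. Its groups overlapped throughout, and the log2 fold change was -0.09 ± 0.23 in memory cells (adjusted p = 0.868) with an interval of -0.56 to 0.38, and -0.05 ± 0.25 without wild-type memory library 4.

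Evl and Vasp belong to the Ena/VASP family, which lengthens filaments at their growing ends. Evl (chr12:108554720-108688516, plus strand) had 46.6, 38.5, 42.8, 54.3 and 40.2 in Dock2-deficient memory libraries, against 67.2, 74.7, 58.5 and 90.9 in wild-type memory libraries. Naive libraries gave 60.1, 71.2, 66.6, 68.3 and 54.4 in Dock2-deficient naive libraries, against 78.0, 64.1, 66.2 and 72.7 in wild-type naive libraries for Evl. The 5 Dock2-deficient memory libraries were the 5 lowest of the series, with Dock2-deficient naive library 5 just above their highest. The log2 fold change was -0.69 ± 0.19 against wild-type memory cells (adjusted p = 0.228) and -0.52 ± 0.18 against Dock2-deficient naive cells (adjusted p = 0.177). Vasp (chr7:19256929-19271817, minus strand) had 69.2, 46.9, 96.2, 45.1 and 74.3 in Dock2-deficient memory libraries, against 50.6, 46.6, 54.1 and 63.8 in wild-type memory libraries. Vasp was at 38.2, 36.7, 45.6, 35.3 and 39.8 in Dock2-deficient naive libraries, against 34.7, 34.4, 64.3 and 30.5 in wild-type naive libraries. In Dock2-deficient memory against naive cells the log2 fold change of Vasp was 0.70 ± 0.24 (adjusted p = 0.177), so the fitted values of the 2 family members lay on opposite sides of 0 there.

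Lcp1 (L-plastin, chr14:75131101-75230842, plus strand), the filament bundler of blood cells, had 652, 908, 938, 919.8 and 1330.4 in Dock2-deficient memory libraries, against 995, 1116, 977 and 1202 in wild-type memory libraries. Lcp1 reached 751, 697, 756, 723 and 685 in Dock2-deficient naive libraries, against 955, 842, 793 and 685 in wild-type naive libraries in naive cells. Wild-type memory and naive libraries did not overlap, and the log2 fold change was 0.39 ± 0.20 in wild-type cells (adjusted p = 0.435) and 0.36 ± 0.17 in Dock2-deficient cells (adjusted p = 0.379), the last 0.23 ± 0.16 without Dock2-deficient memory library 5. Tln1 (talin, chr4:43531519-43562691, minus strand), which opens integrins and ties them to actin, had 979.9, 918, 717, 1295 and 386 in Dock2-deficient memory libraries, against 1167, 1523, 1306 and 1525 in wild-type memory libraries. For naive libraries Tln1 was 1308, 1133, 1393, 675 and 875 in Dock2-deficient naive libraries, against 1667, 1381, 871 and 982 in wild-type naive libraries. Library 5 was again the lowest, and the log2 fold change was -0.78 ± 0.30 in Dock2-deficient against wild-type memory cells (adjusted p = 0.259), and -0.52 ± 0.25 without that library. Flna, filamin, a crosslinker on chromosome X, averaged 767 ± 237 in Dock2-deficient memory, 886 ± 313.2 in Dock2-deficient naive, 1397 ± 499.8 in wild-type memory and 939 ± 299.1 in wild-type naive libraries, with a log2 fold change of -0.87 ± 0.32 (adjusted p = 0.254). Actn1, an alpha-actinin, averaged 151 ± 62.1 in Dock2-deficient memory, 220.3 ± 66.3 in Dock2-deficient naive, 182 ± 36.4 in wild-type memory and 221 ± 65.1 in wild-type naive libraries. Actn4, the other alpha-actinin, averaged 153 ± 8.95 in Dock2-deficient memory, 169.8 ± 34.7 in Dock2-deficient naive, 149 ± 50.4 in wild-type memory and 174 ± 68.0 in wild-type naive libraries. Vcl, vinculin, which strengthens adhesions under force, was under the filter and reached 34.5 in Dock2-deficient memory library 1.

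Myosin II pulls on filaments, with Myh9 as its main heavy chain in T cells. None of the 3 tested members passed the test. Myh9 (chr15:77760587-77842175, minus strand) had 731, 694, 670.3, 999 and 263 in Dock2-deficient memory libraries, against 1089, 1538, 1026 and 1179 in wild-type memory libraries. Myh9 in the naive groups had 1213, 1299, 1409, 492 and 679 in Dock2-deficient naive libraries, against 1764, 1273, 798 and 792 in wild-type naive libraries. Dock2-deficient memory libraries lay below wild-type memory libraries without overlap. Below their highest value, 999, lay also 2 of the Dock2-deficient naive libraries (492 and 679) and 2 of the wild-type naive libraries (798 and 792). The log2 fold change was -0.95 ± 0.36 in memory cells (adjusted p = 0.259; -0.64 ± 0.31 without library 5) and -0.21 ± 0.36 in naive cells (adjusted p = 0.991). The light chains stood on the other side of 0. Their principal transcripts have 665 bases (Myl6) and 1937 bases (Myl12a), and that of Myh9 has 7433. Myl6, the essential light chain whose window with a CArG box is shown above, averaged 724 ± 385 in Dock2-deficient memory, 481 ± 108 in Dock2-deficient naive, 408 ± 17.9 in wild-type memory and 459 ± 105 in wild-type naive libraries, with 0.67 ± 0.29 in Dock2-deficient against wild-type memory cells (adjusted p = 0.283). Myl12a, a regulatory light chain, averaged 581 ± 322 in Dock2-deficient memory, 385 ± 69.7 in Dock2-deficient naive, 342 ± 57.4 in wild-type memory and 389 ± 98.2 in wild-type naive libraries, with 0.60 ± 0.30 (adjusted p = 0.323). Without library 5 these were 0.41 ± 0.24 for Myl6 and 0.34 ± 0.26 for Myl12a.

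A property of the members that the choice did not use, the length of the principal transcript, differed between members above and below 0. The limit of 3000 bases was set after the values were seen, and counts are given as a description, with no test. In Dock2-deficient against wild-type memory cells, 25 of 27 members under 3000 bases lay above 0 (median log2 0.34), as did 5 of 17 longer members (median -0.22). Among other genes 64.9% of the shorter and 37.8% of the longer lay above 0 (medians 0.17 and -0.18). In Dock2-deficient memory against naive cells the counts were 25 of 27 and 6 of 17 (medians 0.43 and -0.13). Of other genes, 59.5% of the shorter and 39.1% of the longer lay above 0 there (medians 0.09 and -0.13). Wild-type memory against naive cells gave 13 of 27 and 12 of 17, where 49.2% and 48.6% of other genes lay above 0. Dock2-deficient against wild-type naive cells gave 15 of 27 and 9 of 17, where 59.7% and 43.1% of other genes did.

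The correlation of fold change with log2 length across the 44 members, which share the same libraries, was r = -0.71 (Spearman's coefficient -0.69) in Dock2-deficient against wild-type memory cells, against r = -0.30 across 8665 other genes. Across the members it was -0.64 in Dock2-deficient memory against naive cells, -0.11 in Dock2-deficient against wild-type naive cells and 0.40 in wild-type memory against naive cells. Across the other genes r was -0.21, -0.16 and -0.05 in the same order. Without library 5, the members' r was -0.60 in Dock2-deficient against wild-type memory cells and -0.43 in Dock2-deficient memory against naive cells. The shortest transcripts include Myl6 at 665 bases, Tmsb10 at 690 and Tmsb4x at 768. The longest are Flna at 8456, Tln1 at 8393 and Myh9 at 7433 bases.

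A slope on length could be read in each library from 3622 genes that are not members and had a mean of at least 50. It is the log2 value per doubling of transcript length, relative to each gene's mean over the 18 libraries. The slope is thus a deviation from the average library. It ran between -0.626 and 0.156 in Dock2-deficient memory libraries (median -0.164), between -0.259 and 0.231 in Dock2-deficient naive libraries (median 0.110), between 0.0219 and 0.197 in wild-type memory libraries (median 0.0892) and between -0.0984 and 0.368 in wild-type naive libraries (median 0.0656). The lowest, -0.626, was library 5. The ratio of Actb to Myh9 within a library was 13.4 to 239 in Dock2-deficient memory, 8.77 to 50.5 in Dock2-deficient naive, 10.4 to 27.1 in wild-type memory and 7.75 to 46.2 in wild-type naive libraries. With the slope as a term in the fit, an alternative chosen after seeing the data, the members' median was -0.02 in Dock2-deficient against wild-type memory cells (17 of 44 above 0) and 0.07 in Dock2-deficient memory against naive cells (30 above 0). In that fit the log2 fold change of Rhoa in Dock2-deficient against wild-type memory cells was 0.53 (adjusted p = 0.304). What gave the libraries their slopes was not tested.

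**Figure D4:**
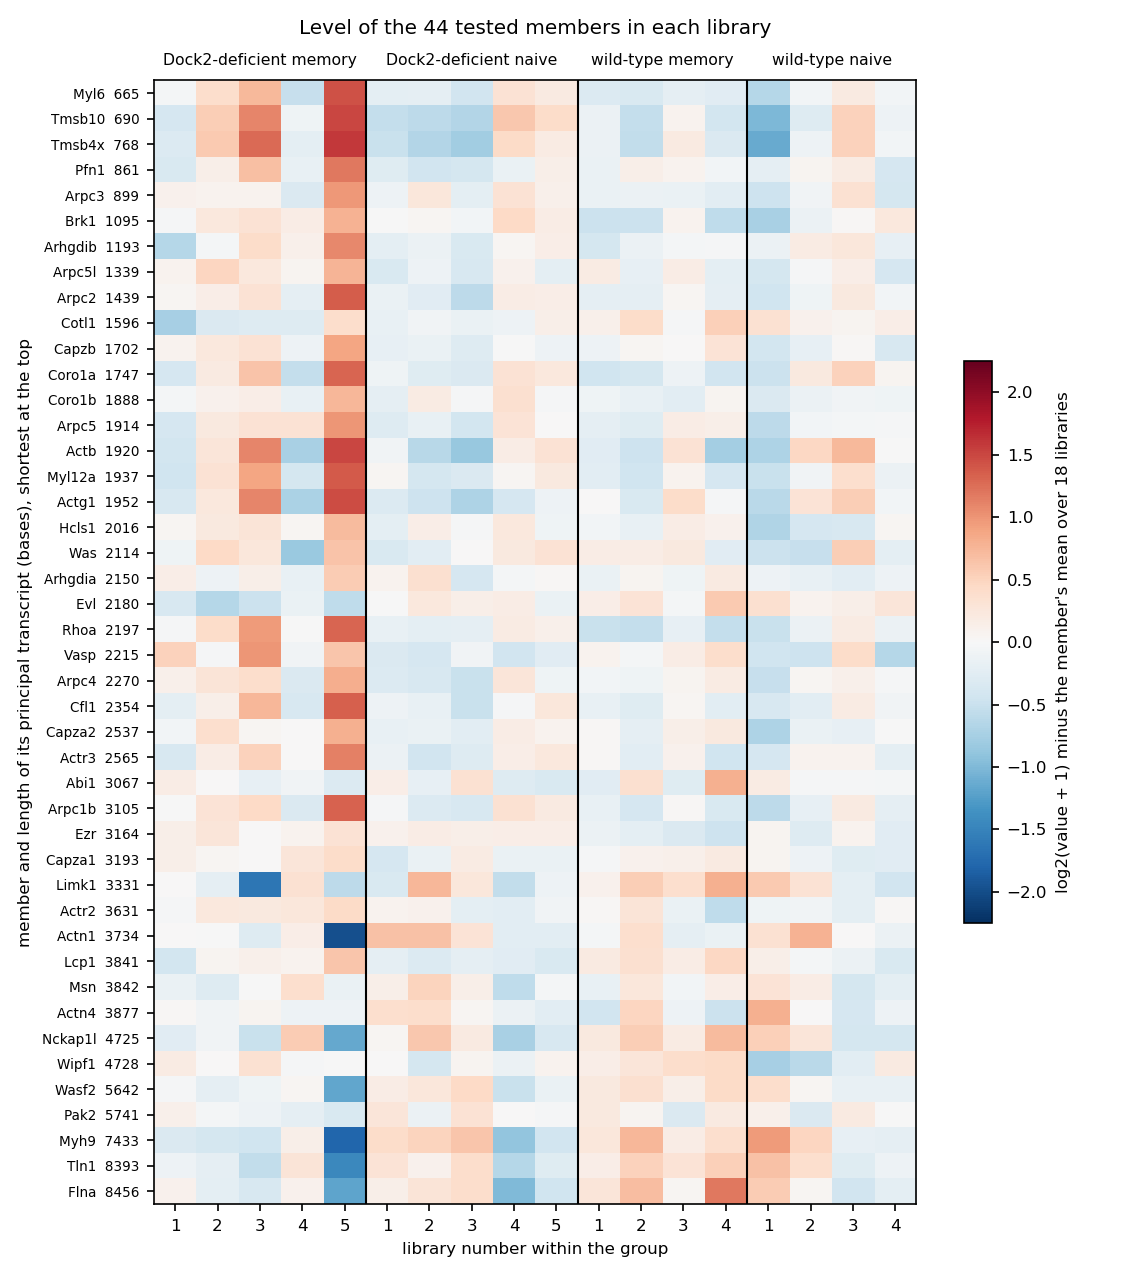
Level of the 44 tested members (rows, shortest transcript at the top, length in bases beside each symbol) in each of the 18 libraries (columns), as log2(value + 1) minus the member's mean over all libraries. In Dock2-deficient memory library 5 most rows in the upper part are red and those at the bottom are blue.

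**Figure D5:**
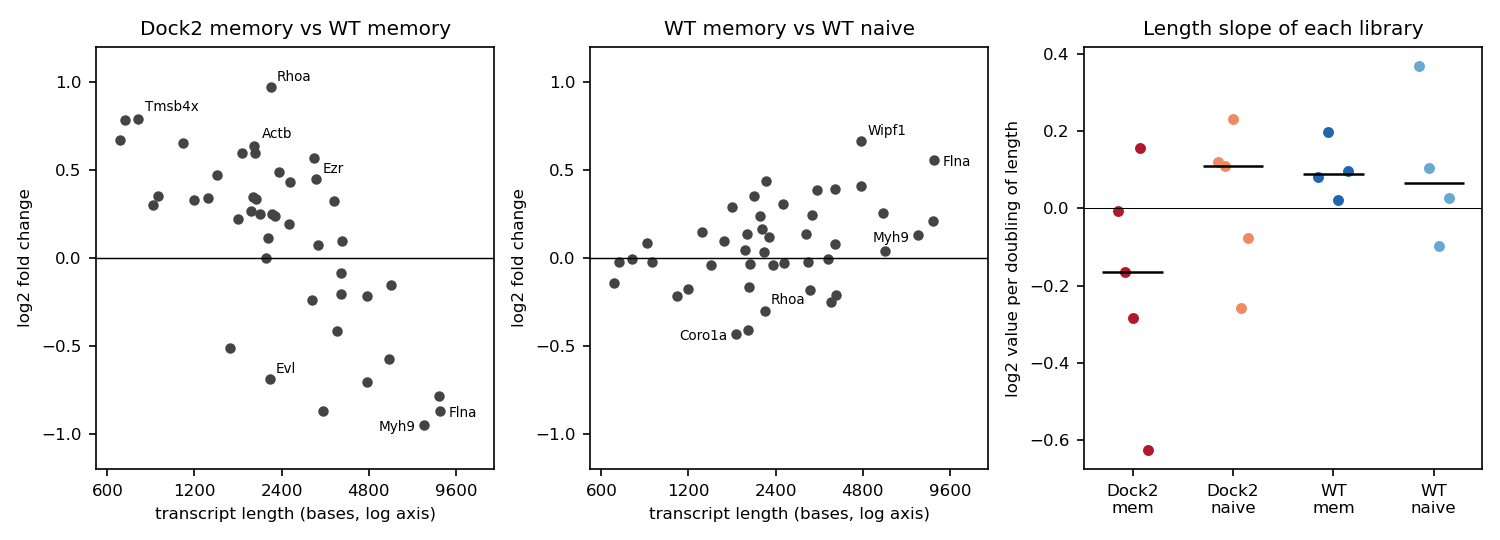
Left and middle, log2 fold change of the 44 tested members against the length of the principal transcript (bases, log axis) in Dock2-deficient against wild-type memory cells and in wild-type memory against naive cells. Right, slope of log2 value per doubling of length over genes that are not members, by library (points) with the group median (line). The slope is relative to each gene's mean over the 18 libraries. Longer members have lower values on the left (r = -0.71) and not in the middle (r = 0.40), and the lowest slope on the right is that of Dock2-deficient memory library 5. Across other genes, not drawn here, r was -0.30 in the left comparison and -0.05 in the middle one.

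Of 93 other actin pathway genes, 84 had a row and 59 were tested. In wild-type memory against naive cells 3 rose and 1 fell, where 2.52% of all genes passed. Zyx (zyxin), a protein of focal adhesions, rose by 1.26 ± 0.20 on the log2 scale (adjusted p = 0.000406), Myo1f, an unconventional myosin of blood cells, by 1.78 ± 0.33 (adjusted p = 0.00279) and Coro2a, a coronin, by 2.57 ± 0.56 (adjusted p = 0.0103). Gsn (gelsolin), which severs and caps filaments, had a log2 fold change of -2.36 ± 0.48 (adjusted p = 0.00554). In Dock2-deficient memory against naive cells 3 rose and 2 fell, where 2.82% of all genes passed. Zyx rose by 0.96 ± 0.18 (adjusted p = 0.00219), Myo1f by 1.77 ± 0.30 (adjusted p = 0.000900) and Dstn, a relative of cofilin, by 1.65 ± 0.45 (adjusted p = 0.0499). Gsn had -1.89 ± 0.43 (adjusted p = 0.0132) and Inf2, a formin, -1.54 ± 0.40 (adjusted p = 0.0369). No gene of this list passed limma's test between genotypes or in the difference of the memory effects, with 2 of 59 at an unadjusted p under 0.05 in naive cells (6.1% of all genes), 12 in memory cells (16.4%) and 2 in the difference (5.21%).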

How the data were processed

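Libraries were made with a Qiagen RNAeasy kit and Smartseq2, per the labels' protocols, and no source used here gives strand or annotation. The mm10 genome, bcl2fastq, FastQC and RSEM are named in the submitters' processing notes. The deposited table is a normalized signal: RSEM expected counts that the authors divided by a factor per library. All values (100%) lay on a grid of 0.01 reads, and 59.5% to 69.3% were whole reads within 0.005, so no count model was used.

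The test was limma (version 3.58.1, R version 4.3.3) on log2(value + 1). Because of the added 1, this scale understates fold changes of weakly expressed genes. Genes with at least 10 in at least 4 libraries entered (9437), with 1 mean per group over all 18 libraries, 14 residual and 6.43 prior degrees of freedom, variances moderated along a trend, two-sided tests and Benjamini-Hochberg adjustment over all genes. The threshold was an adjusted p of 0.05, and intervals are 95% intervals from the moderated test. Groups came from the titles. No library was a duplicate, with a chi-square of 5.01 to 193 per degree of freedom within groups. The fit was tested on simulated data. Positions, transcript lengths and coding sequences come from GENCODE M21, and promoters from RefSeq.

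The members, the list of other actin pathway genes and the marker lists were chosen with earlier results of these data known. Values in every library are given for the 3 members with the smallest p in each comparison and for 17 members picked by role. Python 3.11.15, pandas 2.3.3, scipy 1.17.1, Biopython 1.88 and matplotlib 3.10.9 were used for tables and plots. Depth sets the precision of low genes, and reads without molecular identifiers are not independent molecules. Alternatives were pseudocounts of 5 and 0.1, other filters and scalings, weights per library, fewer libraries, a term for Xist, a replicate block and, chosen after seeing the data, the length slope.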

Additional observations from a re-analysis of the deposited data

Results flagged for a closer look

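A library was set apart from its group where its gap to the nearest library exceeded Dixon's 95% critical value for the group's range. For 22 members in 4 groups, 88 sets of values were examined and 6 met this, while chance gives about 1 in 20. Arpc2 was highest in Dock2-deficient memory library 5, at 1025 against 502 in the next library. Wasf2 was lowest in the same library, at 120 against 237 in the next. Arpc2 and Rhoa were both highest in wild-type memory library 3, Arpc2 at 411 against 349 and Rhoa at 601 against 483 in the next. Was was lowest in wild-type memory library 4, at 54.4 against 73.0 in the next. Vasp was highest in wild-type naive library 3, at 64.3 against 34.7 in the next. The lowest Dock2-deficient memory value of Rhoa was 675, above that wild-type memory value of 601.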

How the results depend on the processing

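The count of members past the threshold was 0 in every comparison under every alternative, apart from 1 (Rhoa, adjusted p = 0.0333) in Dock2-deficient against wild-type memory cells with weights per library. The count over all genes moved more. In Dock2-deficient against wild-type memory cells it was 5, and 12 with a pseudocount of 5, 3 with 0.1, 10 with no filter, 2 with a mean of at least 50, 3 with only the libraries compared, 40 with weights and 0 with a term for Xist. In the difference of memory effects it was 3, and 0 with no filter, 1 with a mean of at least 50, 5 with weights and 0 without both libraries that stood apart. In Dock2-deficient against wild-type naive cells it was 13, and 8 with only the libraries compared and 3 with a term for Xist. In Dock2-deficient memory against naive cells it was 266, and 148 with a mean of at least 50 and 450 with weights. In wild-type memory against naive cells it was 238, and 104 with a mean of at least 50, 377 with weights and 416 with the length slope, which was added after seeing the data. The cause of these moves was not tested. Leaving out a library in turn gave 0 members in every comparison. For all genes it gave 3 to 12 in Dock2-deficient against wild-type memory cells, with 12 without Dock2-deficient memory library 1, 8 without library 4 and 3 without library 3 of that group. It gave 9 to 19 in Dock2-deficient against wild-type naive cells, 200 to 314 in Dock2-deficient memory against naive cells and 185 to 211 in wild-type memory against naive cells. In the difference of memory effects it gave 0 to 2, with 2 without Dock2-deficient naive library 1 or 3 or wild-type memory library 1 or 2, 1 without Dock2-deficient memory library 4 or wild-type naive library 1, and 0 without any other.

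Same-numbered memory and naive libraries correlated between -0.25 and 0.30 in their deviations from the group means. These correlations cannot exclude that same-numbered libraries share a mouse, because differences between libraries such as the length slope enter them too. Xist was high in replicate 1 of both Dock2-deficient groups and in no other library of these groups. No source used here gives pairs, and the main fit did not take the numbers as pairs. With the replicate block the counts were 0 in Dock2-deficient against wild-type memory cells and in naive cells, where the block drops replicate 5, 0 in the difference, 218 in Dock2-deficient memory against naive cells and 196 in wild-type cells, with 0 members in each. Of 2373 alternative values of the named members, 125 had another sign than the value reported and 103 had moved by over 1 SE. Depth limits Vav3, Tiam1 and Vcl.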

Other observations

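Actb is widely used as a reference transcript, and among these libraries it varied more than most members: its highest value, 62820 in Dock2-deficient memory library 5, was 5.09 times its lowest, 12354 in Dock2-deficient naive library 3. Its share of the value outside Rn18s-rs5 ran from 0.923% to 2.59% in Dock2-deficient memory, 0.852% to 1.81% in Dock2-deficient naive, 0.846% to 1.55% in wild-type memory and 1.04% to 2.01% in wild-type naive libraries. The 47 members together took 2.88% to 5.16% in Dock2-deficient memory, 2.69% to 3.89% in Dock2-deficient naive, 2.88% to 3.40% in wild-type memory and 3.14% to 3.96% in wild-type naive libraries. Pak2, Capza1 and Ezr spanned the least, with highest values 1.59, 1.72 and 1.72 times the lowest.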
